A study of Mus musculus with 4 samples.

Results

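The HoxA cluster of mouse chromosome 6 was followed through Hoxa3, Hoxa5, Hoxa7, Hoxa9 and Hoxa10, the long noncoding RNA gene Mira that lies inside it, and Evx1 at its far end. These 7 genes, called the HoxA set here, were taken by name along the cluster and are 7 of 13815 genes in the table. The list was drawn up with their counts in the 3 mRNA libraries in view, so they count as chosen by those counts. Their levels and ratios are therefore descriptions, and none is tested. The libraries are polyadenylated RNA from mouse embryonic stem cells labelled dgcr8-/-, dicer-/- and WT, each with 1 library. All 3 carry the strain label V6.5, the name of an established mouse stem cell line, and shared a culture medium with serum and leukaemia inhibitory factor (sold as ESGRO). The sources used here describe neither the knockout alleles nor the number of clones nor any feeder cells, and do not settle whether the knockouts came from V6.5. A small RNA library was made from WT cells only.

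Hox genes encode homeodomain transcription factors that give cells their position along the body axis. They lie in clusters, and their order on the chromosome matches the order in which they are switched on and the axial level at which they act. In embryonic stem cells the clusters are known to be held silent by Polycomb complexes, which work against the MLL family of histone methyltransferases, and retinoic acid is the classical signal that opens them. DGCR8 is the partner of Drosha in the Microprocessor, which cuts the hairpin out of a primary miRNA transcript. Dicer then cuts the hairpin into the mature miRNA.

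The cluster also makes a miRNA of its own, which links it to the small RNA data. Mir196b lies between Hoxa9 and Hoxa10, and related miRNA genes lie in the HoxB, HoxC and HoxD clusters. Their main mature strands are shown with the seed, bases 2 to 8, in capitals, because they fall into 2 seed families shared between clusters. The sequences are RefSeq's for GRCm38.p6.
mmu-miR-196b-5p (HoxA): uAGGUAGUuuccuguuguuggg
mmu-miR-196a-5p (HoxB and HoxC): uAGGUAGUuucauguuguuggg
mmu-miR-10a-5p (HoxB): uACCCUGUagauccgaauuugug
mmu-miR-10b-5p (HoxD): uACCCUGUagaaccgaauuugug
miR-196b-5p and miR-196a-5p have the same seed and differ by C12A, and miR-10b-5p and miR-10a-5p have the same seed and differ by A12U, counted from the 5′ end of the strand named first.

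The starts of the genes are shown for the windows with the most and the fewest CpG dinucleotides, and for Evx1, which alone in the set is read from the plus strand. CpG-rich starts are the kind at which Polycomb and MLL complexes are known to gather. Each window is the 250 bases before the start annotated by RefSeq on GRCm38.p6, written in the direction of transcription with CpG in capitals.
Hoxa5, chr6:52204588-52204837, minus strand: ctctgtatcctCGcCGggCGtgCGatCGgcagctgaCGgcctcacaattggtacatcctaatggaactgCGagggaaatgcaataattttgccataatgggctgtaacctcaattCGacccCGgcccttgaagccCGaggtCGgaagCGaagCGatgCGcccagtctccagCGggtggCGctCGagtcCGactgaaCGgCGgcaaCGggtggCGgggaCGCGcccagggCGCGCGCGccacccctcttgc
Mira, chr6:52215289-52215538, minus strand: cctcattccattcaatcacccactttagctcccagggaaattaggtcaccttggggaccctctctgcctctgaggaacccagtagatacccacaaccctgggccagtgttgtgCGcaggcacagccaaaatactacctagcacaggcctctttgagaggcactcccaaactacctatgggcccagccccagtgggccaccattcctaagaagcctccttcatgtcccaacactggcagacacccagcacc
Evx1, chr6:52313248-52313497, plus strand: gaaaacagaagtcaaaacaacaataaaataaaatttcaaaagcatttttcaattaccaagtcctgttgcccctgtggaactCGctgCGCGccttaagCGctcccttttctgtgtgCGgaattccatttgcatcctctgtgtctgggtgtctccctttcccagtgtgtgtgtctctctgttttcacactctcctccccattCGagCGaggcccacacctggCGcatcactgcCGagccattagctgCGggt
Hoxa5 has 28 CpG, more than 92.4% of 32851 promoter windows. Mira has 1, more than 7.87% of them, and Evx1 has 10, where the median window has 6. The windows of Hoxa3, Hoxa7 and Hoxa9 hold 18, 7 and 3, and the 2 annotated starts of Hoxa10 hold 7 and 20. The 8 windows were searched on both strands for letters bound by factors that act on Hox genes. None holds TGATNNAT, a HOX-PBX motif found in 7.68% of all windows, or TTTATGG, a CDX motif found in 2.43%. TGACAG, the MEIS and PKNOX motif (15.9% of all windows), is in the Hoxa3 window, AGGTCA, a retinoid receptor binding sequence (14.02%), is in the Mira window, and TATAAA (12.4%) is in 1 Hoxa10 window. No matches overlapped, and a match describes letters only.

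All 7 genes were at or near 0 in WT, at low levels in Dicer knockout cells and highest in Dgcr8 knockout cells. Together they had 1052 counts (94.6 CPM) in Dgcr8 knockout cells, 143 counts (11.6 CPM) in Dicer knockout cells and 4 counts (0.403 CPM) in WT. CPM, or counts per 10 to the sixth, scales a library to its total in the table, which was 11123498 for the Dgcr8 knockout, 12309100 for the Dicer knockout and 9931625 for WT. CPM is not corrected for transcript length, so levels are compared between libraries and not between genes. Intervals are 95% and cover counting error only. A count of 0 in WT, an empty cell in the table, allows up to 3 counts, or 0.302 CPM. A fold given as at least uses that bound for WT and leaves out the counting error of the knockout count. Whether more cells expressed the genes or each cell held more RNA cannot be told apart in bulk samples.

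The targeted genes were lower in their own libraries. Dgcr8 had 20.9 CPM in Dgcr8 knockout cells, 84.7 CPM in Dicer knockout cells and 52.7 CPM in WT. Dicer1 had 128 CPM in Dgcr8 knockout cells, 20.1 CPM in Dicer knockout cells and 79.9 CPM in WT.

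**Figure D1:**
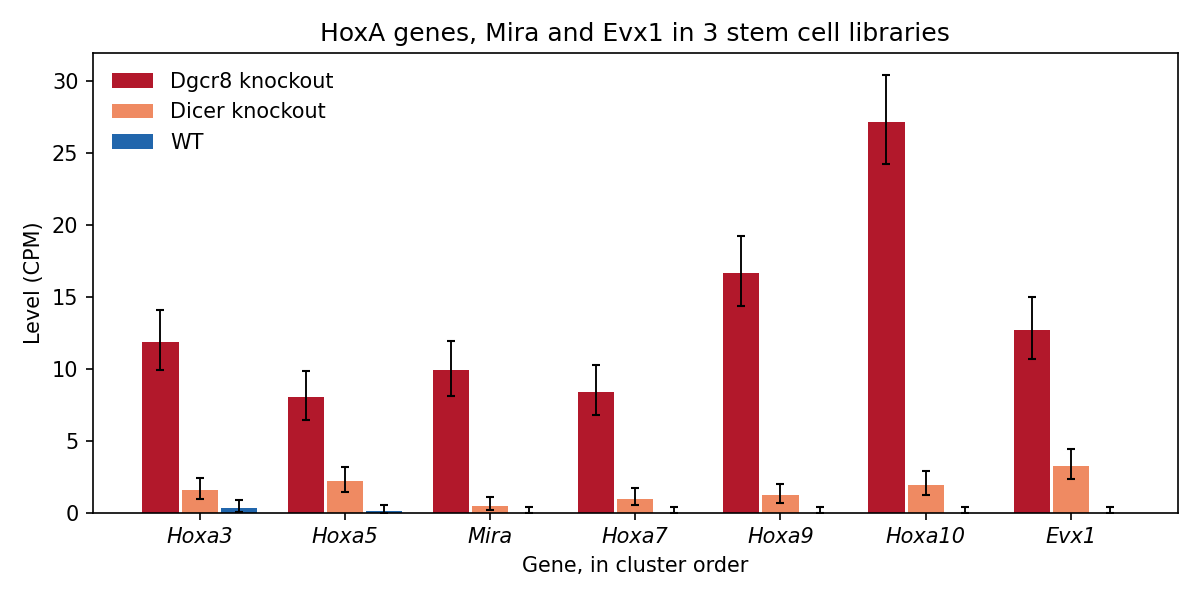
Level in CPM (y axis, linear from 0) of the 7 genes of the HoxA set in cluster order (x axis) in the libraries of Dgcr8 knockout, Dicer knockout and WT cells. Bars are the 1 library of each genotype and lines the exact 95% Poisson interval; in every gene the Dgcr8 knockout bar stands above the other libraries, with Hoxa10 at 27.1 CPM, and WT has no visible bar except for Hoxa3 and Hoxa5.

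The genes at the 3′ side of the cluster act at anterior levels and had a few WT counts. Hoxa3, which is needed for the thymus, the parathyroid and other pharyngeal derivatives, had 11.9 CPM (132 counts) in Dgcr8 knockout cells, 1.54 CPM (19 counts) in Dicer knockout cells and 0.302 CPM (3 counts) in WT. The intervals, 9.93 to 14.1 CPM in Dgcr8 knockout cells, 0.929 to 2.41 CPM in Dicer knockout cells and 0.0623 to 0.883 CPM in WT, were separate, the last pair only narrowly. The ratio to WT was 39.3 (13.2 to 193) in Dgcr8 knockout cells and 5.11 (1.504 to 26.96) in Dicer knockout cells. With counts halved, for the case that mates were counted separately, the last interval widens to 0.860 to 37.9 and includes 1. Hoxa5, which acts in the cervical and thoracic skeleton and in the lung, had 8.001 CPM (89 counts) in Dgcr8 knockout cells, 2.19 CPM (27 counts) in Dicer knockout cells and 0.101 CPM (1 count) in WT. Both knockouts were above WT without overlap of their intervals, and the Dgcr8 knockout was above the Dicer knockout. With so few WT counts the ratios to WT are loose, 79.5 (13.9 to 3173) in Dgcr8 knockout cells and 21.8 (3.59 to 892) in Dicer knockout cells.

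Mira and Hoxa7 are neighbours in the middle of the cluster. Mira, also called Mistral, is a long noncoding RNA gene next to Hoxa7, reported in mouse embryonic stem cells to bring MLL1 to Hoxa6 and Hoxa7. It had 9.89 CPM (110 counts) in Dgcr8 knockout cells, 0.487 CPM (6 counts) in Dicer knockout cells and 0 counts in WT. Only the Dgcr8 knockout was clearly above WT, by at least 32.7-fold against a floor of 3 counts in WT. The 6 counts of the Dicer knockout, with an interval of 0.179 to 1.06 CPM, reach below the 0.371 CPM that a Poisson interval allows for WT. Hoxa7, a trunk Hox gene, had 8.36 CPM (93 counts) in Dgcr8 knockout cells, 0.975 CPM (12 counts) in Dicer knockout cells and 0 counts in WT. Its level in Dgcr8 knockout cells exceeded WT at least 27.7-fold, and in Dicer knockout cells at least 3.23-fold. On the log2(CPM + 1) scale Mira and Hoxa7 were the closest pair of the set, at a Euclidean distance of 0.46 over the 3 libraries. Hoxa6, which lies on the other side of Mira, was not analysed here.

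Hoxa9, Hoxa10 and Evx1, toward the 5′ side of the cluster and just beyond it, had no count in WT. Hoxa9, a regulator of blood stem cells that is active with Meis1 in leukaemia, had 16.6 CPM (185 counts) in Dgcr8 knockout cells, 1.22 CPM (15 counts) in Dicer knockout cells and 0 counts in WT. The Dgcr8 knockout was at least 55.1-fold higher than WT and the Dicer knockout at least 4.03-fold higher. Hoxa10, which patterns the lumbar vertebrae and the uterus, had 27.1 CPM (302 counts) in Dgcr8 knockout cells, 1.95 CPM (24 counts) in Dicer knockout cells and 0 counts in WT. Its level was at least 89.9-fold above WT in Dgcr8 knockout cells and at least 6.45-fold above WT in Dicer knockout cells. For both genes the intervals of the 3 libraries were separate, with the Dgcr8 knockout far above the rest. Evx1, an even-skipped homeobox gene of the primitive streak and of spinal interneurons, had 12.7 CPM (141 counts) in Dgcr8 knockout cells, 3.25 CPM (40 counts) in Dicer knockout cells and 0 counts in WT. Its level exceeded WT at least 42.0-fold in Dgcr8 knockout cells, and at least 10.8-fold in Dicer knockout cells.

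With a gene called at 2-fold or more on log2(CPM + 1) and with genes left out that reach 1 CPM in neither library of a pair, 7 of 7 were higher in Dgcr8 knockout cells than in WT, where 14.3% of all 13223 genes were higher and 8.02% lower. In the Dicer knockout against WT, 5 of 7 passed the floor and 4 were called higher, where 16.0% of 13403 genes were higher and 9.70% lower; Hoxa3, at a log2 ratio of 0.97, lay just under the line, and Mira and Hoxa7 were under the floor. All that passed did so only through the knockout library and could not come out lower. The median log2 ratio was 3.44 in Dgcr8 knockout cells (5.03 with genes at 0 set at their bound) and 1.54 in Dicer knockout cells (2.01), against 0.11 and 0.10 over all genes tested. The choice of genes used these contrasts, so the shares support nothing, and both contrasts use the same WT library. With a pseudocount of 5 CPM or a floor of 5 CPM, 0 of the set were called in Dicer knockout cells.

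Among the 252 genes with an empty cell in WT, Hoxa10, Hoxa9, Evx1, Mira and Hoxa7 ranked 2 to 6 by counts in Dgcr8 knockout cells, in that order, and only Casq2, a calsequestrin gene named after its values were seen, had more. In the Dicer knockout the same genes ranked from 40 (Evx1) to 223 (Mira). Most genes empty in WT leaned the other way: 181 of the 252 had a lower CPM in Dgcr8 knockout cells than in Dicer knockout cells, and 71 had a higher one. Hoxa11 and Hoxa2, from the same cluster, ranked 11 and 17 in Dgcr8 knockout cells.

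**Figure D2:**
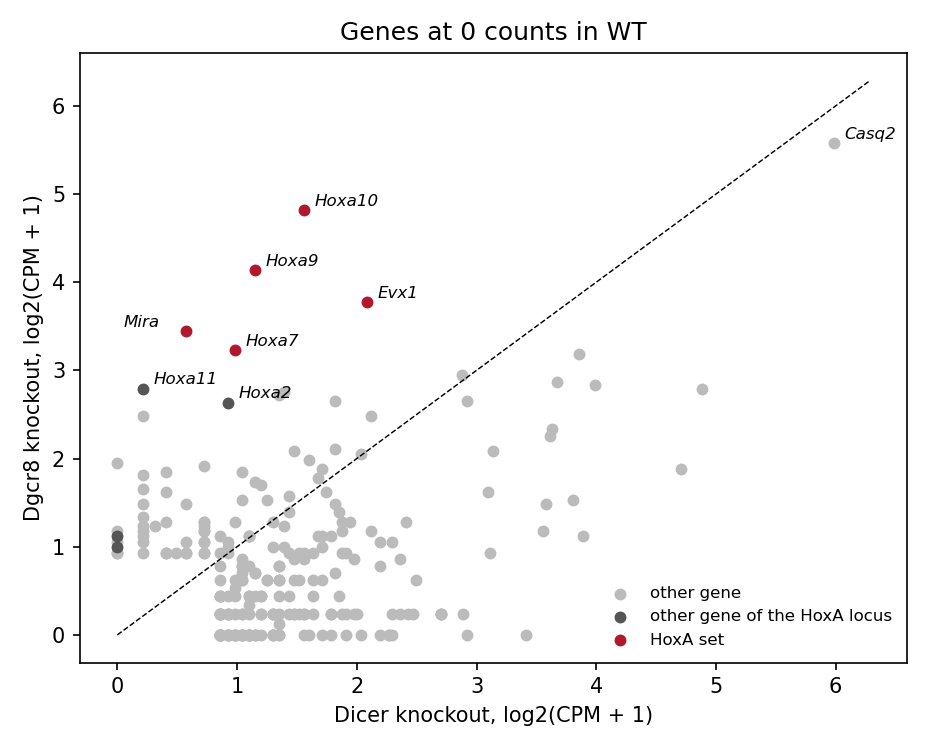
Levels of the 252 genes at 0 counts in WT, with log2(CPM + 1) in Dicer knockout cells on the x axis and in Dgcr8 knockout cells on the y axis; each point is a gene and the dashed line marks equal levels. The 5 genes of the HoxA set that are empty in WT (red) lie far above the line, with Hoxa10 the highest of them, other genes of the locus are dark grey, and Casq2 lies below the line at the right.

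The knockouts, which do not share the WT library when set against each other, differed in every gene of the set. Mira had the highest ratio of the Dgcr8 knockout to the Dicer knockout, 20.3 (9.03 to 56.5). Hoxa10 followed with 13.9 (9.18 to 22.1), Hoxa9 with 13.6 (8.06 to 24.9), Hoxa7 with 8.58 (4.68 to 17.2) and Hoxa3 with 7.69 (4.73 to 13.2). Evx1, at 3.90 (2.73 to 5.69), and Hoxa5, at 3.65 (2.35 to 5.84), were lowest. Neighbours in this order overlap in their intervals, but the intervals of Mira, Hoxa10 and Hoxa9 lie wholly above those of Evx1 and Hoxa5. If both mates of each pair were counted and the counts are halved, only Hoxa10 (7.74 to 27.5) stays apart from Evx1 (2.33 to 6.72) and Hoxa5 (1.87 to 6.87). The ratio of the summed counts was 8.14 (6.83 to 9.76). By the size rule 7 of 7 were higher in Dgcr8 knockout cells and 0 lower, where 4.15% of 12986 genes were higher and 5.05% lower; this contrast, too, was known when the genes were chosen. With 1 library of each, cell line, culture and genotype cannot be told apart.

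The make-up of the set differed between the knockouts in the same way. Hoxa10 made up 28.7% (26.0 to 31.5, Clopper-Pearson) of the set's counts in Dgcr8 knockout cells and 16.8% (11.1 to 23.9) in Dicer knockout cells. Evx1 made up 13.4% (11.4 to 15.6) in Dgcr8 knockout cells and 28.0% (20.8 to 36.1) in Dicer knockout cells, and Hoxa5 8.46% (6.85 to 10.3) and 18.9% (12.8 to 26.3). Hoxa9 made up 17.6% (15.3 to 20.02) and 10.5% (5.99 to 16.7), and Mira 10.5% (8.67 to 12.5) and 4.20% (1.56 to 8.91), so for these genes the intervals overlap a little. The shares of Hoxa3 were 12.5% and 13.3% and those of Hoxa7 8.84% and 8.39%, with overlapping intervals.

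Hoxa2, Hoxa4 and Hoxa11, other genes of the cluster, were also highest in Dgcr8 knockout cells. Hoxa2, which patterns the second pharyngeal arch, had 58 counts in Dgcr8 knockout cells, 11 in Dicer knockout cells and 0 in WT. Hoxa4 had 27, 6 and 3 counts in the same libraries. Hoxa11, a limb and kidney gene next to Hoxa10, had 66 counts in Dgcr8 knockout cells, 2 in Dicer knockout cells and 0 in WT. Their ratios between the knockouts were 5.83 (3.03 to 12.3) for Hoxa2, 4.98 (2.01 to 14.7) for Hoxa4 and 36.5 (9.72 to 308) for Hoxa11. The antisense transcripts Hoxa11os (13 counts) and Evx1os (11 counts) had counts in Dgcr8 knockout cells only. In the GRCm38.p6 annotation Evx1os overlaps Evx1, Gm52902 overlaps Hoxa10, and several genes overlap Hoxa3 and Hoxa5. Hoxa4 and Hoxa5 are among the genes that overlap Hoxa3. The library kit marks strand, but no source used here says whether counting used it, so those counts may be shared. Hoxa3 and Hoxa5 are both read from the minus strand, so a strand setting would not separate them.

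Genes flanking the cluster had ratios between the knockouts from 0.844 to 1.36, apart from Jazf1. On the 3′ side the adaptor gene Skap2 had 81.8 CPM in Dgcr8 knockout cells, 60.2 CPM in Dicer knockout cells and 38.5 CPM in WT, a ratio between the knockouts of 1.36 (1.232 to 1.499). On the 5′ side the valine catabolism gene Hibadh had 93.0 CPM in Dgcr8 knockout cells, 107 CPM in Dicer knockout cells and 68.5 CPM in WT, a ratio of 0.867 (0.798 to 0.941). Farther out, Snx10, Cbx3, Hnrnpa2b1 and Nfe2l3 were at 0.869, 0.981, 1.17 and 0.844, Tax1bp1 was at 0.9999 and Jazf1 at 0.516. Against WT the flanks were not flat: Skap2 was at 2.13 (1.89 to 2.40) in Dgcr8 knockout cells and 1.57 (1.38 to 1.78) in Dicer knockout cells, and Snx10 at 2.62 (2.27 to 3.04) and 3.02 (2.62 to 3.49). In the list of other HoxA and flanking genes, 7 of 13 tested were higher in Dgcr8 knockout cells than in WT and 0 lower. In Dicer knockout cells 3 of 9 tested were higher and 0 lower. The shares over all genes were 14.3% higher and 8.02% lower in Dgcr8 knockout cells, and 16.0% and 9.70% in Dicer knockout cells. Of the 13 and 9 tested, 5 and 1 passed the floor only through the knockout and could not come out lower. Jazf1 was among the 5 and was not called in Dgcr8 knockout cells.

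**Figure D3:**
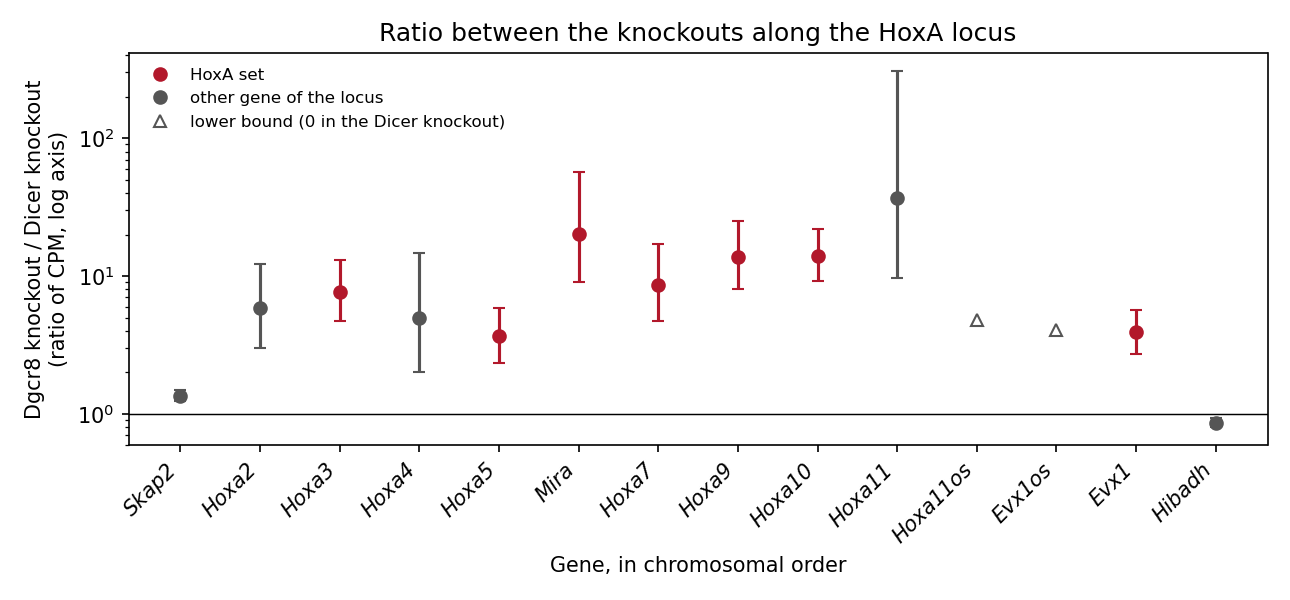
Ratio of CPM in Dgcr8 knockout cells to that in Dicer knockout cells (y axis, log scale) for genes of the HoxA locus in chromosomal order (x axis), with exact 95% counting intervals; red points are the HoxA set, grey points other genes of the locus, and open triangles lower bounds against 3 counts. From Hoxa2 to Evx1 all points lie above 3, with Mira at 20.3 and Hoxa11 at 36.5, while the flanking genes Skap2 and Hibadh lie at 1.36 and 0.867.

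Few genes of the other Hox clusters are in the table, all at low counts. Of 31 HoxB, HoxC and HoxD genes and transcripts listed, 7 are in the table, with 11.7 CPM in all in Dgcr8 knockout cells, 10.2 CPM in Dicer knockout cells and 3.73 CPM in WT. Hoxd8 and Hoxd9 had 10 counts each in Dgcr8 knockout cells, 24 and 26 in Dicer knockout cells and 0 in WT, more in Dicer knockout cells, where each gene of the HoxA set had fewer. Their ratios between the knockouts were 0.461 (0.197 to 1.0003) and 0.426 (0.183 to 0.912). Hoxb13 had 69 counts in Dgcr8 knockout cells, 41 in Dicer knockout cells and 14 in WT, Hoxb9 had 25, 14 and 7, and Hoxc4 had 0, 0 and 13. Between the knockouts 0 of 5 tested genes of these clusters passed 2-fold in either direction, where 4.15% of all genes were higher and 5.05% lower. At such shares 0 of 5 does not set these clusters apart from all genes. Of these 5, 3 were below 1 CPM in Dgcr8 knockout cells but not in Dicer knockout cells, and could not come out higher. In the Dgcr8 knockout against WT 1 of 3 was called higher and 1 lower (median log2 ratio 0.93), where 14.3% of all genes were higher and 8.02% lower. In Dicer knockout cells 3 of 6 were called higher and 1 lower (1.004), where 16.0% of all genes were higher and 9.70% lower. Of these 6, 4 reached 1 CPM in Dicer knockout cells but not in WT, the 3 called higher among them, and could not come out lower.

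The miRNAs of the Hox clusters were read in WT only, so their loss in the knockouts was not measured. miR-196b-5p, the miRNA of the HoxA cluster, had 3 of 2594949 reads (1.16 RPM, scaled like CPM, 0.238 to 3.38), while miR-196a-5p, with the same seed, had 896 reads (345 RPM, 323 to 369) and ranked 91 of 707 miRNAs. The ratio of miR-196a-5p to miR-196b-5p was 299 (102 to 1451). miR-10a-5p had 507 reads (195 RPM, 179 to 213) and miR-10b-5p had 3. The reads of miR-10 and miR-196 thus lay almost wholly in the a forms. Of 11 mature names of the miR-10, miR-196 and miR-615 genes in the Hox clusters, 6 are in the small RNA table, none of them miR-615; miR-196a-1-3p, which only the HoxB copy makes, had 40 reads and miR-10a-3p 1. In WT the HoxA set was near 0 and so was the cluster's miRNA, while miR-196a and miR-10a are encoded in other clusters. Of 13 Hox genes on a list of reported vertebrate targets of these miRNAs, 7 are in the table. In the Dgcr8 knockout 5 of 5 tested were higher than in WT, where 14.3% of all genes were higher and 8.02% lower. Of these, 4 were Hoxa genes of the set that entered only through the knockout. The median was 3.23 (3.30 with genes at 0 at their bound). In the Dicer knockout 3 of 5 were higher, with a median of 1.15 (1.54), where 16.0% of all genes were higher and 9.70% lower. The 3 were Hoxa5 and Hoxa9, which are genes of the set, and Hoxd8, which is not. Hoxa3, also of the set, was tested and not called. These 4 entered only through the knockout and could not come out lower. Both counts thus largely restate the choice of genes.

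HOX proteins bind DNA together with TALE homeodomain partners, and several of these genes were higher in both knockouts. Of 9 TALE cofactor genes, 5 were called higher in Dgcr8 knockout cells and 4 in Dicer knockout cells, and 0 were lower in either, with medians of 1.76 and 0.76. Of all genes, 14.3% were higher and 8.02% lower in Dgcr8 knockout cells, and 16.0% higher and 9.70% lower in Dicer knockout cells. Meis2 had 270 counts in Dgcr8 knockout cells, 150 in Dicer knockout cells and 22 in WT. Its ratio to WT was 10.96 (7.09 to 17.8) in Dgcr8 knockout cells and 5.50 (3.50 to 9.04) in Dicer knockout cells. Pbx3 was at 5.10 (3.82 to 6.92) and 6.40 (4.82 to 8.63), and Pknox2 at 6.89 (4.36 to 11.4) and 8.80 (5.62 to 14.5). Meis3 (0.603, 0.348 to 1.03, in Dgcr8 knockout cells) and Pbx2 (1.19, 1.07 to 1.31) stayed under 2-fold.

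The chromatin regulators of the cluster are read against the same all-gene shares, 14.3% higher and 8.02% lower in Dgcr8 knockout cells, and 16.0% higher and 9.70% lower in Dicer knockout cells. Of 27 Polycomb genes, 6 were higher and 2 lower in Dgcr8 knockout cells and 4 higher and 2 lower in Dicer knockout cells, with medians of 0.23 and 0.21. The PRC2 partner gene Mtf2 was 2.38-fold lower (2.25 to 2.53) in Dgcr8 knockout cells and 2.54-fold lower (2.39 to 2.69) in Dicer knockout cells, and the PRC1 gene Pcgf1 2.76-fold (1.996 to 3.86) and 2.46-fold (1.82 to 3.35) lower. Bmi1, also of PRC1, was at a ratio of 3.41 (2.31 to 5.17) in Dgcr8 knockout cells and 7.60 (5.30 to 11.2) in Dicer knockout cells. Of 19 MLL and trithorax genes, 4 were higher in Dgcr8 knockout cells and 3 in Dicer knockout cells, and 0 lower, with medians of 0.35 and 0.16. Ash1l was at 3.94 (3.24 to 4.82) and 3.19 (2.62 to 3.91), and Kmt2a, which encodes MLL1, at 2.19 (1.92 to 2.52) and 2.26 (1.98 to 2.59).

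Retinoic acid and caudal genes act upstream of Hox clusters. Of 15 retinoic acid pathway genes tested in Dgcr8 knockout cells, 1 was higher and 3 lower, and of 16 in Dicer knockout cells 0 were higher and 4 lower, with medians of -0.04 and -0.30. Of all genes, 14.3% were higher and 8.02% lower in the first comparison and 16.0% and 9.70% in the second, for the caudal list too. Of the retinoic acid genes tested, 2 of 15 and 3 of 16 passed the floor only through WT and could not come out higher. Only through the knockout passed 0 and 1. The retinoic acid receptor gene Rarb had 34 counts in Dgcr8 knockout cells, 6 in Dicer knockout cells and 10 in WT, a ratio between the knockouts of 6.27 (2.60 to 18.3). Stra8, a gene induced by retinoic acid, had 118 counts in Dgcr8 knockout cells, 26 in Dicer knockout cells and 1050 in WT, and the binding protein gene Crabp1 had 18, 16 and 501. In the list of caudal and posterior axis genes, 4 of 8 were higher and 2 lower in Dgcr8 knockout cells (median 0.77, or 1.05 with genes at 0 at their bound), and 3 of 8 higher and 2 lower in Dicer knockout cells (0.47). In each comparison 2 of the 8 passed the floor only through the knockout and could not come out lower. Another 1 in Dgcr8 knockout cells and 2 in Dicer knockout cells passed only through WT and could not come out higher. Cdx1, a caudal gene that activates Hox genes in the embryo, had 85 counts in Dgcr8 knockout cells, 9 in Dicer knockout cells and 333 in WT. Between the knockouts it was 10.5-fold higher (5.25 to 23.6) in Dgcr8 knockout cells, and it was highest in WT. Gdf11, a posterior patterning ligand gene, had 30 counts in Dgcr8 knockout cells, 28 in Dicer knockout cells and 0 in WT.

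**Figure D4:**
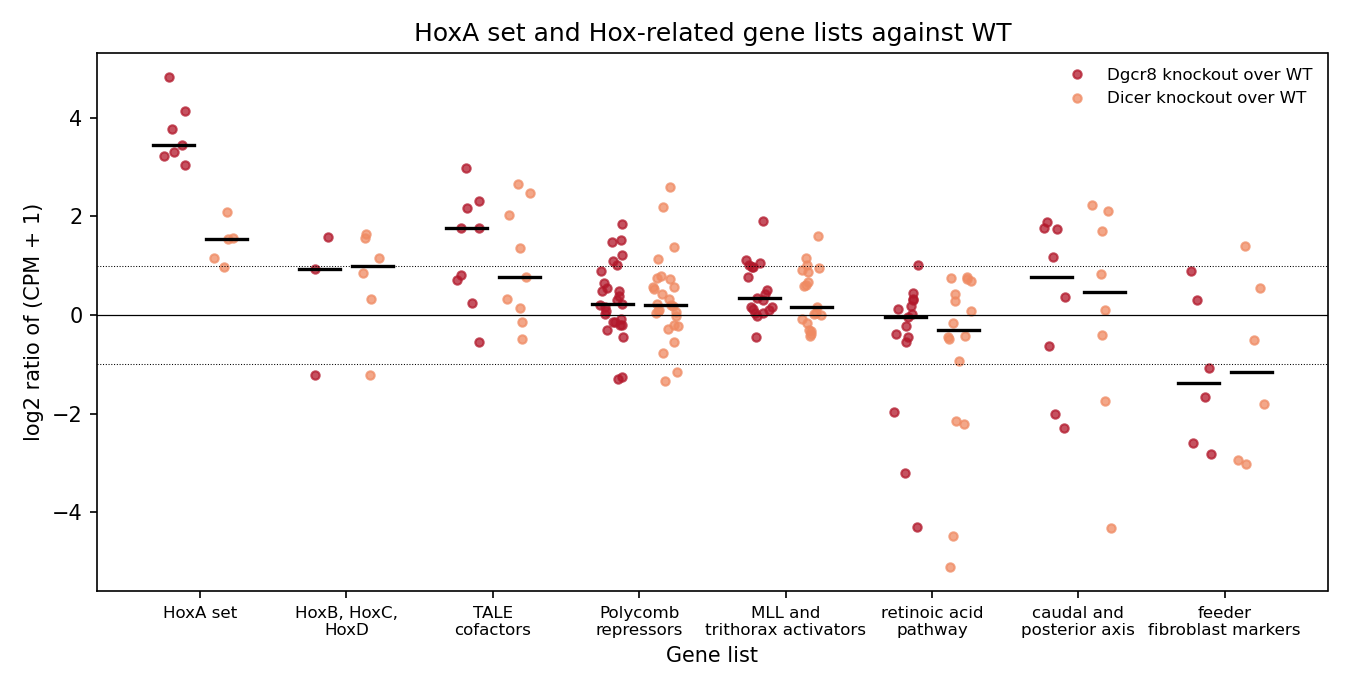
Log2 ratio of CPM + 1 to WT (y axis) for the HoxA set and 7 gene lists (x axis); each point is a tested gene in the Dgcr8 knockout (dark red) or the Dicer knockout (orange), black bars are list medians and dotted lines mark 2-fold. The HoxA set has medians of 3.44 and 1.54, the TALE cofactors 1.76 and 0.76, the Polycomb list 0.23 and 0.21 and the retinoic acid list -0.04 and -0.30.

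Cells other than stem cells can carry HoxA transcripts, and their markers were looked at for that reason. Of 12 feeder fibroblast markers, 6 are in the table, with 110 CPM in all in Dgcr8 knockout cells, 91.1 CPM in Dicer knockout cells and 89.6 CPM in WT. Fbln1 had 1170 counts in Dgcr8 knockout cells, 1019 in Dicer knockout cells and 558 in WT, most of the sum. Twist1 had 25, 72 and 16 counts in these libraries, Col1a1 6, 5 and 97, Thy1 23, 16 and 175, Pdgfra 4, 3 and 33, and S100a4 0, 6 and 11. In this list 0 genes were higher and 4 of 6 lower in Dgcr8 knockout cells, and 1 higher and 3 lower in Dicer knockout cells. The shares over all genes, here and for the next lists, were 14.3% higher and 8.02% lower in Dgcr8 knockout cells. In Dicer knockout cells they were 16.0% and 9.70%. In each comparison 3 of the 6 fibroblast markers passed the floor only through WT and could not come out higher. Of 8 neural markers, all in the table, 5 were called higher in Dgcr8 knockout cells and 7 in Dicer knockout cells, and their summed level was 274 CPM in Dgcr8 knockout cells, 292 CPM in Dicer knockout cells and 159 CPM in WT. Pax6 had 66 counts in Dgcr8 knockout cells, 189 in Dicer knockout cells and 2 in WT. It was 1 of 2 neural markers that passed the floor only through the knockout in each comparison and could not come out lower. Not called in Dgcr8 knockout cells were Neurod1, at a ratio to WT of 1.02 (0.467 to 2.26), Map2, at 1.06 (0.612 to 1.87), and Tubb3, at 1.32 (1.23 to 1.42). Mesoderm markers had 9.98 CPM in all in Dgcr8 knockout cells, 10.3 CPM in Dicer knockout cells and 12.0 CPM in WT over the 5 of 8 in the table. Of 4 tested, 1 was higher in Dgcr8 knockout cells and 2 in Dicer knockout cells. In each comparison 2 of the 4, all those called higher among them, passed the floor only through the knockout. These could not come out lower. Embryonic stem cell markers had 7488 CPM in all in Dgcr8 knockout cells, 8060 CPM in Dicer knockout cells and 11311 CPM in WT. Dppa5a was the largest part of each sum, with 2715, 4222 and 5564 CPM in these libraries, so the sums mostly follow a few genes. Of the 8 markers, 0 were higher and 2 lower in each knockout, and Nanog had 6419 counts in Dgcr8 knockout cells, 5127 in Dicer knockout cells and 4020 in WT. The lower ones were Tdgf1, at ratios to WT of 0.317 in Dgcr8 knockout cells and 0.283 in Dicer knockout cells, Dppa5a, at 0.488 in Dgcr8 knockout cells, and Zfp42, at 0.195 in Dicer knockout cells. Zfp42 was 4.06-fold higher (3.80 to 4.33) in Dgcr8 than in Dicer knockout cells. What part cells of these kinds have in the HoxA levels was not tested.

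The genes outside the set whose pattern was most like its mean, by Euclidean distance of log2(CPM + 1) over the 3 libraries, were Cyp2b23 (0.70), Gm13889 (0.98), Herc6 (0.999), Gpr126 (1.02) and Nr2f2 (1.04). Within the set, Hoxa3 was nearest to the mean (0.31) and Hoxa10 farthest (1.09). No other gene was nearer to the mean than Hoxa3, Hoxa9, Hoxa7 or Hoxa5, 1 gene was nearer than Evx1 and Mira, and 7 were nearer than Hoxa10. Cyp2b23, a cytochrome P450 gene, had 132 counts in Dgcr8 knockout cells, 31 in Dicer knockout cells and 5 in WT, and Nr2f2, which encodes the nuclear receptor COUP-TFII, had 62, 19 and 0. The distances describe 3 libraries and nothing more.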

How the data were processed

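Polyadenylated RNA was measured in 3 stem cell libraries and small RNA in 1, with 1 library per group. The authors deposited raw counts, 1 column for each mRNA library with RefSeq identifiers as rows, and a second table of counts by mature miRNA. The submitters' processing notes name Bowtie and mm9. How reads were assigned to genes, with which annotation, filter or strand setting, is not stated there. All mRNA rows have 10 counts or more somewhere, and genes with fewer were not analysed here. Among counts between 2 and 9, 74.8% were even in Dgcr8 knockout cells, 69.7% in Dicer knockout cells and 69.6% in WT. If mates were counted separately, the intervals are too narrow.

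Empty cells were read as 0. Counts were scaled to CPM, and 1 CPM is 11.1 counts in Dgcr8 knockout cells, 12.3 in Dicer knockout cells and 9.93 in WT. Log2 ratios use CPM + 1, so the fold of a weakly expressed gene is understated. A fold against a count of 0 is a bound against 3 counts in that library. It takes the other count without its counting error and is not the lower limit of an interval. Intervals are exact: Poisson for levels, conditional binomial for ratios and Clopper-Pearson for shares. They cover counting error only, since PCR reads are not independent molecules. The method was tested on simulated data in which only genes with mean levels above those of the HoxA set were changed. The test therefore does not cover counts as low as those of the set in WT. Gene names, neighbours and overlaps came from RefSeq's GRCm38.p6 tables, and promoter windows were found for 7 of 7 genes. The rule for naming took the HoxA set, the other genes of the locus, the 2 highest and 2 lowest ratios to WT of each of 12 lists, the 5 genes nearest to the set's mean, Dgcr8, Dicer1 and the miRNAs of Hox clusters; the text prints some of the genes it gives, and Casq2, Pdgfra and S100a4 fall outside it and were named after their values were seen. Some genes of the lists are counted but not reported here by name. The genes and lists were chosen with earlier results of these data known. Tools were Python 3.11.15, scipy 1.17.1 and edgeR 4.0.16 (TMM factors only) in R 4.3.3.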

Additional observations from a re-analysis of the deposited data

How the results depend on the processing

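The count of 7 of 7 genes higher in Dgcr8 knockout cells than in WT was the same under all 8 other settings (pseudocounts of 0.1 and 5 CPM, no floor and a floor of 5 CPM, median-ratio and TMM scaling, and size rules of 1.5-fold and 4-fold). Against the Dicer knockout it was 7 in 6 of these, 6 with a pseudocount of 5 CPM and 5 at 4-fold, and 0 genes were lower in any. The count of 4 in Dicer knockout cells against WT was 0 with a pseudocount of 5 CPM, 0 with a floor of 5 CPM, which no gene of the set reached, and 1 at 4-fold. Without Hoxa10 the summed level was 67.4 CPM in Dgcr8 knockout cells and 9.67 CPM in Dicer knockout cells. Median-ratio scaling moved the median log2 ratio of all genes by -0.13 in Dgcr8 knockout cells and -0.11 in Dicer knockout cells, and TMM scaling by -0.11 and -0.10; genes higher then made up 53.6% and 55.4% of all calls in Dgcr8 knockout cells instead of 64.1%. All 21 ratios and bounds of the 7 genes kept their direction under either scaling. With counts halved, bounds against WT were halved as well, to 44.9 for Hoxa10 and 13.8 for Hoxa7 in Dgcr8 knockout cells, Mira in Dicer knockout cells, at 3 counts, gave no fold, and the interval of Hoxa3 in Dicer knockout cells over WT, 0.860 to 37.9, included 1. No paired analysis was possible because each group has 1 library.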
